A study of Rattus norvegicus with 12 samples.

Results

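The nuclear genes of cytochrome c oxidase and of the mitochondrial ATP synthase were examined in left ventricle punches of adult wild-type Groningen rats. Of the 32735 rows of the deposited gene table, 37 had a symbol starting with Cox4, Cox5, Cox6, Cox7 or Cox8 (20 rows) or with Atp5 (17 rows), and each row was counted by its own gene ID. The 36 symbols include Cox6b1, which occurs with more than 1 gene ID. Social defeat by a resident rat was repeated on 8 consecutive days in 6 rats (RSD), and 6 rats were unhandled controls (CTR). Each rat gave 1 library, and the only treatment named is the defeat itself. All libraries were labelled male except RSD 40, labelled female in a series described as male.

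Cytochrome c oxidase, complex IV of the respiratory chain, passes electrons from cytochrome c to oxygen and pumps protons across the inner mitochondrial membrane. The ATP synthase uses the returning protons to make ATP. The catalytic core of the oxidase and part of the proton channel of the synthase are encoded in the mitochondrial genome, and the remaining subunits are encoded in the nucleus. The heart depends on both complexes for contraction, and several oxidase subunits have a heart and skeletal muscle isoform beside a ubiquitous isoform.

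Of the 37 rows, 31 had enough reads to be tested, 15 for the oxidase and 16 for the ATP synthase. None of the 31 passed adjusted p 0.05 over the 7511 genes tested in limma (smallest adjusted p = 0.26), where 0.0266% of genes did. At an unadjusted p under 0.05, 9 rows were lower in RSD and 0 were higher, against 4.47% and 3.89% of all genes tested. They were both Cox6b1 rows, Cox6a1, Cox6c, Cox7b, Cox8a and Cox7a2l2 of the oxidase rows and Atp5j and Atp5c1 of the ATP synthase rows. The log2 fold change, RSD over CTR, lay below 0 in 27 of 31 rows (87.1%, against 49.3% of all genes tested), with a median of −0.11 against 0.00 over all genes. No row had its 6 RSD values wholly under the CTR range, a separation found in 0.173% of genes. The heart isoforms Cox6a2 and Cox8b had log2 fold changes of −0.08 and 0.01, neither with an unadjusted p under 0.05.

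**Figure D1:**
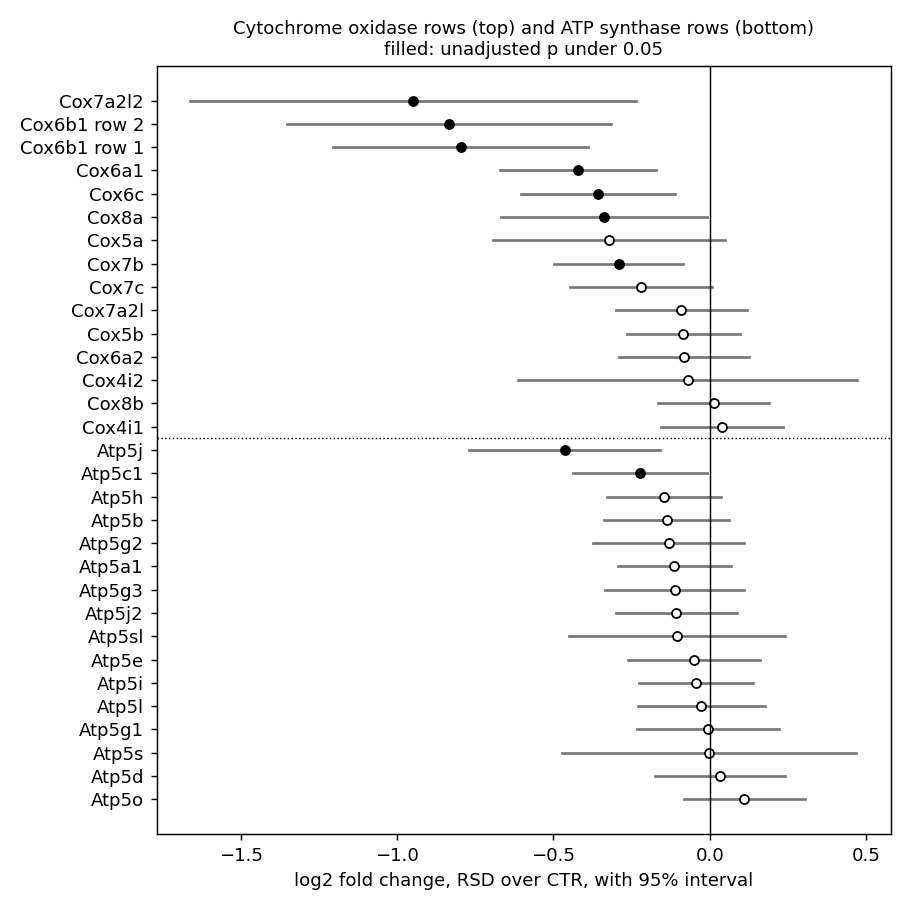
Log2 fold change of each tested row, RSD over CTR, on the log2(CPM + 1) scale, with its 95% interval from limma. Filled points have an unadjusted p under 0.05. Oxidase rows stand above the dotted line, from Cox7a2l2 (−0.95) to Cox4i1 (0.04), and ATP synthase rows below it, from Atp5j (−0.46) to Atp5o (0.11).

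Libraries held 2062798 (RSD 33) to 3731108 (RSD 34) reads, so that 1 read was worth 0.268 to 0.485 CPM, the deposited unit, in which each library's reads are scaled to the same total. The libraries read the 3' end of each transcript, so levels were compared between genes without division by length. They remain approximate between genes, since they rest on the reads assigned to each annotated 3' end. Values below are normalised CPM, that is CPM divided by a TMM scaling factor. The mitochondrial genome took 49.7% to 58.4% of the reads in RSD and 50.2% to 57.0% in CTR. In bulk tissue, fewer cells of a type and less RNA per cell cannot be told apart.

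Levels spanned more than 2 powers of 10. Cox6a2 was the most abundant oxidase row, at 2109 CPM over the 12 libraries, followed by Cox8b at 1759 and Cox6c at 1666. Cox7a2l2 (7.65) and Cox4i2 (7.99) were the lowest tested rows. Among ATP synthase rows Atp5i, the e subunit that helps pair synthase monomers, led at 2096 CPM, then Atp5b, the catalytic beta subunit, at 1943 and Atp5g3, a gene of the proton-carrying c ring, at 1708. Neighbours in this order often overlapped, and Atp5g3 (1227 to 2083 CPM over the 12 libraries) did not separate from Atp5l (1402 to 1910) or Atp5g1 (1281 to 2092).

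**Figure D2:**
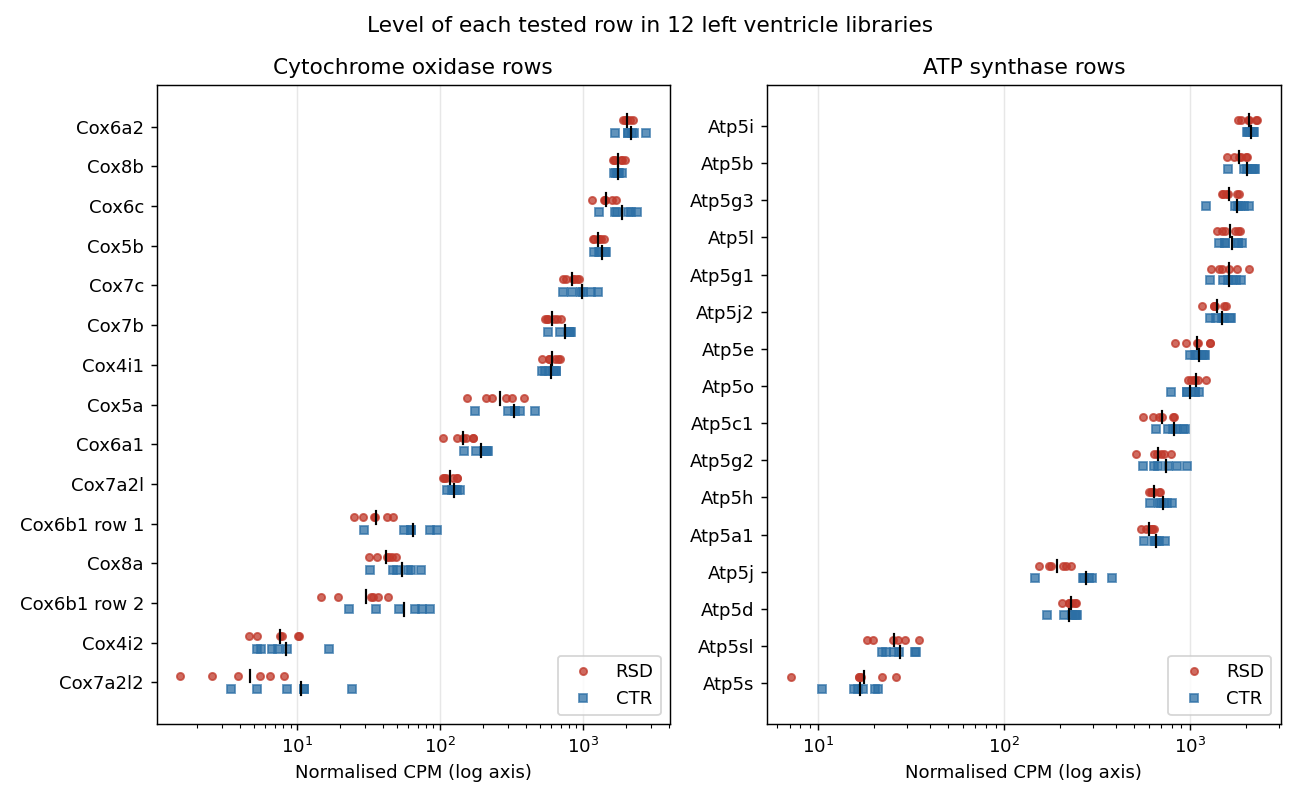
Normalised CPM of each tested row on a log axis, with circles for the 6 RSD libraries, squares for the 6 CTR libraries and a black tick at each group mean. Row 1 of Cox6b1 is ENSRNOG00000024309.4 and row 2 is ENSRNOG00000034161.4. Many abundant rows lie close together in both groups, but Cox6c, Cox7b and Atp5c1 have lower means in RSD. Cox6b1, Cox6a1 and Cox7a2l2 spread lower in RSD and overlap with the CTR range. Atp5j has a lower mean in RSD, but its lowest library is CTR 22.

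Between rats of the same group, the coefficient of variation had a median of 13.3% over the 31 rows and ran from 6.41% for Cox8b to 71.3% for Cox7a2l2. Counting error alone was 1.41% for Cox8b and 28.9% for Cox7a2l2, on 273 reads in all 12 libraries. Rows of 500 CPM or more had a median log2 fold change of −0.11 (19 rows, 3 at an unadjusted p under 0.05), rows of 100 to 500 CPM −0.32 (5 rows, 2) and rows under 100 CPM −0.34 (7 rows, 4).

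Cox6b1 encodes a small subunit on the intermembrane side of the oxidase, near the site where cytochrome c docks. Its more abundant row (ENSRNOG00000024309.4) measured 24.8, 34.9 and 46.9 CPM in RSD and 29.4, 62.4 and 94.9 CPM in CTR as lowest, median and highest library. All 6 RSD values stood under the CTR median, and 2 under the lowest control. The log2 fold change was −0.80 (SE 0.20, 95% interval −1.20 to −0.39, limma adjusted p = 0.26). The other row (ENSRNOG00000034161.4) measured 14.7, 33.4 and 43.4 CPM in RSD and 22.9, 58.9 and 85.7 CPM in CTR, a log2 fold change of −0.83 with SE 0.25 (adjusted p = 0.367 in limma). RefSeq lists a pseudogene with Cox6b1 as an older name, so reads may have been split between near-identical copies, and the rows are uncertain as separate genes. The deposited columns are labelled unique, so reads matching both copies may be missing from both rows, which was not tested. Summed over both rows, Cox6b1 stood at 65.8 ± 17.2 CPM in RSD and 121 ± 46.1 CPM in CTR (SD, n = 6 each).

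Cox6c, a small subunit that spans the inner membrane, was the most abundant of the rows with an unadjusted p under 0.05. It measured 1163, 1424 and 1689 CPM in RSD and 1296, 1884 and 2375 CPM in CTR as lowest, median and highest library (log2 fold change −0.36, SE 0.12, limma adjusted p = 0.433). The groups overlapped, with 5 RSD libraries above the lowest control, CTR 22. Cox7b, another membrane-spanning subunit, measured 539, 598 and 697 CPM in RSD and 570, 797 and 822 CPM in CTR (log2 fold change −0.29, SE 0.10, limma adjusted p = 0.433). Here 3 RSD rats had less than any control. Cox7a2l2, which RefSeq lists as a protein-coding gene, measured 1.52, 4.70 and 8.15 CPM in RSD and 3.42, 9.88 and 24.1 CPM in CTR, on as few as 3 reads in a library (log2 fold change −0.95, SE 0.35, limma adjusted p = 0.475).

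Intervals of the log2 fold change included 0 for Cox5a, Cox5b, Cox7c and Cox7a2l. Cox5a, a subunit on the matrix side, varied widely, at 154, 259 and 385 CPM in RSD and 177, 334 and 464 CPM in CTR (log2 fold change −0.32, 95% interval −0.69 to 0.05). Cox5b, a zinc-binding subunit beside it, stood at 1277 ± 86.9 CPM in RSD and 1354 ± 100.0 CPM in CTR (SD, n = 6 each). Cox7c measured 838 ± 80.5 CPM in RSD and 988 ± 194 CPM in CTR (log2 fold change −0.22, 95% interval −0.45 to 0.01). For Cox7a2l, which helps join complexes III and IV into supercomplexes, the log2 fold change was −0.09, with a 95% interval of −0.30 to 0.12.

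Isoform pairs were compared within each library, as the log2 ratio of their CPM plus 1, which does not depend on library scaling apart from the pseudocount. Of 7 pairs considered, 5 had enough reads. Cox6a2, the heart and skeletal muscle isoform of subunit VIa, outnumbered the ubiquitous Cox6a1 by 14.4 ± 2.91 to 1 in RSD and 11.2 ± 1.28 to 1 in CTR (SD, n = 6 each). The log2 ratio was 3.51, 3.77 and 4.28 in RSD and 3.30, 3.44 and 3.67 in CTR as lowest, median and highest library. In 4 of 6 RSD libraries the ratio lay above the highest CTR library, and in 6 of 6 above the CTR median. The mean difference of 0.34 had an exact two-sided permutation p = 0.0238, and 0.119 after Benjamini-Hochberg adjustment over the 5 pairs, so it did not pass. The pairs were chosen with the lower Cox6a1 values already known, so this result is not independent support.

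Cox6a1 itself measured 104, 148 and 171 CPM in RSD and 147, 206 and 217 CPM in CTR as lowest, median and highest library (log2 fold change −0.42, SE 0.12, limma adjusted p = 0.363). Every RSD value lay under the CTR median, and 3 lay under the whole CTR range. Cox6a2 measured 1897, 2017 and 2232 CPM in RSD and 1673, 2147 and 2782 CPM in CTR (log2 fold change −0.08, 95% interval −0.29 to 0.13). Its RSD values lay inside the CTR range, and the log2 fold change was −0.15 without CTR 22 and −0.0083 without CTR 24.

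Cox8b, the isoform of subunit VIII found in rodent heart, outnumbered the ubiquitous Cox8a by 43.7 ± 10.8 to 1 in RSD and 34.6 ± 10.6 to 1 in CTR (SD, n = 6 each). The log2 ratio differed by 0.35 (exact two-sided permutation p = 0.145, 0.267 adjusted over the 5 pairs), with 6 of 6 RSD libraries above the CTR median and 1 above the highest CTR library. Cox8a measured 31.8, 43.4 and 49.6 CPM in RSD and 32.5, 55.0 and 74.1 CPM in CTR (log2 fold change −0.34, SE 0.16, limma adjusted p = 0.58). Cox8b stood at 1769 ± 141 CPM in RSD and 1749 ± 74.2 CPM in CTR (95% interval of the log2 fold change −0.16 to 0.19). Without CTR 22 the difference in log2 ratio was 0.48, and without CTR 24 it was 0.23.

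The promoters of this pair are shown with that of Cox6a2 because the ubiquitous and the heart isoform stand at very different levels in the same tissue. They are RefSeq sequences of build GRCr8 (the deposited table was made on rn6), each 250 bases before to 50 after the gene's start, on the minus strand. Cox8a lies at chr1:213833574-213833873, Cox8b at chr1:205408224-205408523 and Cox6a2 at chr1:192219667-192219966. Cox6a1 had no such window, so Cox8a is the only ubiquitous isoform shown. Capitals mark matches on either strand to 4 motifs. These were CCGGAAG (ETS factors, which include the mitochondrial gene regulator GABP), GCGCANGCG (NRF1, a regulator of respiratory genes), AANATGGC (YY1) and the E-box CANNTG, bound by muscle bHLH factors.

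Cox8a: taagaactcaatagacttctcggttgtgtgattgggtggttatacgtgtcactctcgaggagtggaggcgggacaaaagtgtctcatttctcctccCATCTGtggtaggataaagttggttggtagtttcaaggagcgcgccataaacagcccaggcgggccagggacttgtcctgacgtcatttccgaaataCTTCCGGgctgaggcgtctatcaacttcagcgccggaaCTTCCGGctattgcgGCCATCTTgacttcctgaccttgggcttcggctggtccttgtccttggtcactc
Cox8b: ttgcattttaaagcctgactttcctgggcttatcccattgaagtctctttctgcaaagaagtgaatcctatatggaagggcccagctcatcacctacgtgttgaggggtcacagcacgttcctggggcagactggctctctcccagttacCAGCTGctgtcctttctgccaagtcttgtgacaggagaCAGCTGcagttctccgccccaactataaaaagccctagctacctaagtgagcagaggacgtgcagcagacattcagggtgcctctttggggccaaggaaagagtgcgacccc
Cox6a2: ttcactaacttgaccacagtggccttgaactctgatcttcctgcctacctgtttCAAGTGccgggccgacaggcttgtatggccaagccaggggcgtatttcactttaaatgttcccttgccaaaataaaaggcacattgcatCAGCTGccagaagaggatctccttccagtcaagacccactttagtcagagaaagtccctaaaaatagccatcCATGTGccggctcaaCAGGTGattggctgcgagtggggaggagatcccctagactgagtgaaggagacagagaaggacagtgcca

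The Cox8a window held 2 ETS matches, 1 YY1 match and 1 E-box. The Cox8b window held 2 E-boxes and the Cox6a2 window 4, with none of the other motifs in either, and no matches overlapped. Over the 30 genes with a window of this size in the RefSeq table, 23.3% held the NRF1 motif against 5.8% of all 33469 windows, 23.3% against 8.75% the ETS motif, 30% against 6.96% the YY1 motif and 80% against 72.1% an E-box. The 30 include genes without enough reads here, such as Cox7b2 and Cox8c, and Dmac2l, which is not a subunit of the synthase. Median GC content was 53.8% in these windows and 51.7% in all windows. A match describes letters only.

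The remaining pairs gave smaller differences. Cox4i1, the main form of subunit IV, measured 611 ± 63.4 CPM in RSD and 595 ± 58.8 CPM in CTR, while Cox4i2, an oxygen-regulated form best known from lung, stood at 4.59 to 10.2 CPM in RSD and 5.25 to 16.8 CPM in CTR. Their log2 ratio differed by 0.10 (exact permutation p = 0.729) and by −0.08, −0.02 and −0.02 without CTR 24, RSD 38 or RSD 40. Atp5g1, Atp5g2 and Atp5g3 encode the same mature c subunit behind different import sequences, and together reached 3928 ± 473 CPM in RSD and 4146 ± 631 CPM in CTR (SD, n = 6 each). The log2 ratio of Atp5g1 to Atp5g3 differed by 0.11 (exact permutation p = 0.16), and by 0.059 without RSD 40 and 0.15 without CTR 22, and that of Atp5g2 to Atp5g3 by −0.02 (exact permutation p = 0.851).

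**Figure D3:**
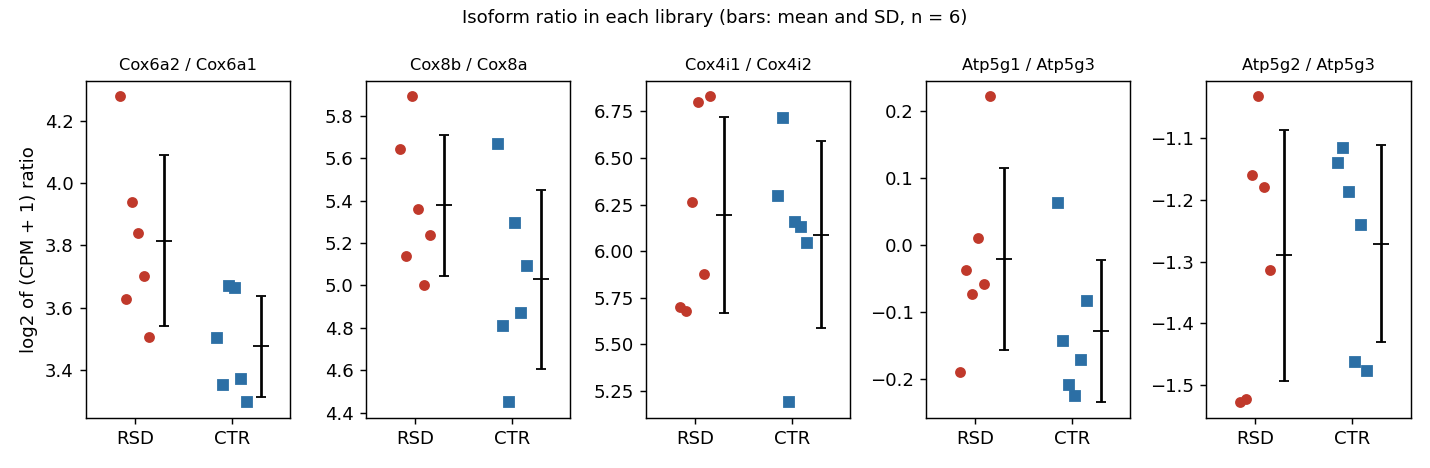
Log2 ratio of (CPM + 1) within each library for 5 isoform pairs, RSD as circles left of CTR as squares, with the mean and SD of 6 libraries beside each group. Each panel has its own vertical scale. The Cox6a2 to Cox6a1 ratio runs from 3.51 to 4.28 in RSD and from 3.30 to 3.67 in CTR.

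Heart isoform Cox7a1 had 2 reads in all 12 libraries, both in CTR, which is too few for a ratio. No row had the symbol of its ubiquitous partner, Cox7a2. Cox6b2, a testis form, had 7 reads. Cox8c, Cox7b2, Cox6c-ps1 and Atp5f1, the b subunit of the synthase's peripheral stalk, were listed at 0 in all 12 libraries, where a count of 0 allows up to 0.804 to 1.45 CPM per library. That limit covers counting error only. Whether reads of Cox7a1 and Atp5f1 were assigned elsewhere was not tested.

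In the F1 head of the ATP synthase, Atp5c1, the gamma subunit of the rotating shaft, measured 562, 697 and 818 CPM in RSD and 661, 825 and 936 CPM in CTR as lowest, median and highest library. Each RSD library was under the CTR median, and 2 were under every control (log2 fold change −0.22, SE 0.10, limma adjusted p = 0.572). Atp5b, the catalytic beta subunit, stood at 1847 ± 165 CPM in RSD and 2038 ± 239 CPM in CTR, and Atp5a1, its alpha partner, at 605 ± 34.3 CPM in RSD and 655 ± 55.3 CPM in CTR (SD, n = 6 each). Both proteins are present in equal number in the complex, while reads of Atp5b exceeded those of Atp5a1 by 3.06 ± 0.215 to 1 in RSD and 3.12 ± 0.403 to 1 in CTR. Atp5d (delta) and Atp5e (epsilon), the small shaft subunits, had log2 fold changes of 0.03 and −0.05.

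Of the peripheral stalk, which holds the head still, Atp5j (coupling factor 6) measured 155, 193 and 229 CPM in RSD and 146, 278 and 381 CPM in CTR. All 6 RSD libraries lay below the CTR median, but CTR 22 was the lowest of the 12 (log2 fold change −0.46, SE 0.15, limma adjusted p = 0.433). Atp5h, the d subunit, measured 643 ± 35.8 CPM in RSD and 713 ± 65.5 CPM in CTR (log2 fold change −0.15, 95% interval −0.33 to 0.04). Atp5o, the subunit that joins stalk and head, had the highest log2 fold change of the 31 rows, 0.11 (95% interval −0.08 to 0.30), at 1074 ± 87.1 CPM in RSD and 998 ± 116 CPM in CTR.

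The membrane subunits Atp5i, Atp5j2 and Atp5l had log2 fold changes of −0.04, −0.11 and −0.03. Atp5g1, Atp5g2 and Atp5g3 of the c ring had −0.01, −0.13 and −0.11. Without CTR 22 Atp5g2 and Atp5g3 stood at −0.21 and −0.22, and without CTR 23 at −0.052 and −0.064. Atp5s and Atp5sl, which RefSeq now names Dmac2l and Dmac2 and which are not subunits of the complex, stood at 17.6 ± 6.46 and 25.7 ± 6.15 CPM in RSD and at 16.8 ± 3.75 and 27.4 ± 4.89 CPM in CTR.

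Libraries of the same group differed across many of these rows. CTR 22 was the lowest control in 26 of 31 rows, and RSD 33 the lowest defeated rat in 15. The median deviation of the 31 rows from their own means was −0.24 in CTR 22 and −0.28 in RSD 33 on the log2 scale, while the other 5 CTR libraries were between 0.06 and 0.23 and the other 5 RSD libraries between −0.09 and 0.05. The tested oxidase rows summed to 8702 to 9641 CPM in RSD and 8211 to 11918 CPM in CTR, all 6 RSD sums below the CTR median. ATP synthase rows summed to 14058 to 17145 CPM in RSD and 13637 to 17563 CPM in CTR.

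**Figure D4:**
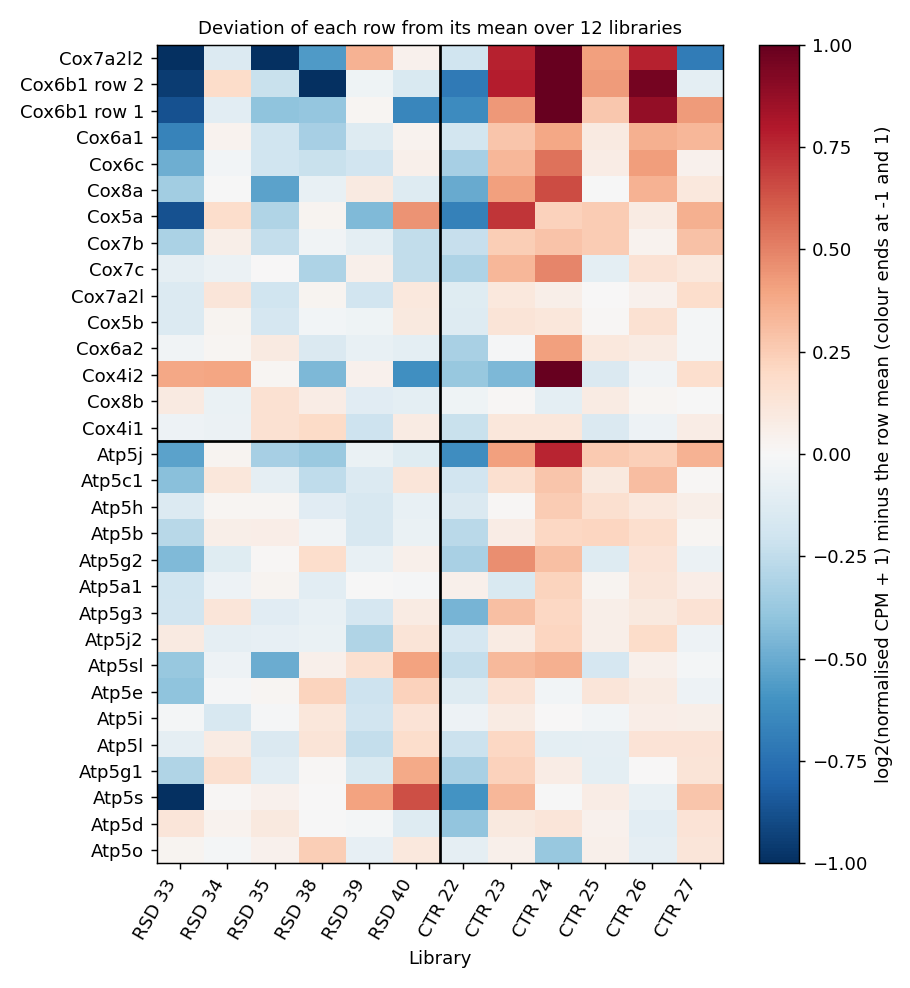
Deviation of log2(normalised CPM + 1) from the row mean over the 12 libraries, RSD left of the vertical line and CTR right of it, oxidase rows above the horizontal line. Blue is lower and red higher than the row mean, and colours end at −1 and 1. RSD 33 and CTR 22 are blue over most rows, and CTR 24 is red over most oxidase rows.

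Without CTR 22, 5 rows passed adjusted p 0.05 in limma, all lower in RSD, against 0.536% of the 7645 genes tested. They were Cox6b1 (adjusted p = 0.00353 for the more abundant row, and log2 fold change −1.06 with adjusted p = 0.0232 for the other), Atp5j (−0.63, adjusted p = 0.00657), Cox6c (−0.46, adjusted p = 0.0367) and Cox6a1 (−0.50, adjusted p = 0.0402). Leaving out any other library gave 0. The most abundant row of the mitochondrial genome took 19.4% to 25.7% of reads in RSD and 17.9% to 24.2% in CTR. Its medians were 23.3% and 18.3%, 0 RSD libraries lay below the CTR median, and CTR 22 was the highest control. The share thus differed between the groups, so a fit with both cannot cleanly separate them. With this share as a covariate the median log2 fold change of the 31 rows was 0.00, with 15 below 0. In that fit 2 rows in place of 9 had an unadjusted p under 0.05. Those were the more abundant Cox6b1 row (−0.46) and Cox6a1 (−0.29). The other 7 stood at −0.48 for the second Cox6b1 row, −0.40 for Cox7a2l2, −0.21 for Atp5j, −0.16 for Cox7b, −0.13 for Cox6c, −0.087 for Cox8a and −0.079 for Atp5c1. With 1 surrogate variable the median was −0.03, with 19 below 0 and 2 rows at an unadjusted p under 0.05. These included the more abundant Cox6b1 row (−0.44) but not Cox6a1 (−0.19). The matching shares of all genes were not counted for either covariate fit, so these counts have no background beside them. Without RSD 40, whose label differs in sex, the median was −0.14.

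The subunits encoded in the mitochondrial genome gave intervals that included 0. Mt-co1 and Mt-co2, the catalytic core of the oxidase, had log2 fold changes of −0.16 (95% interval −0.40 to 0.07) and −0.21 (−0.49 to 0.07). Mt-cox3, the remaining core subunit, had 0.02, and Mt-atp6 and Mt-atp8 of the synthase had −0.06 and 0.01. Mt-atp6 was the most abundant of these, at 82667 ± 7288 CPM in RSD and 86506 ± 13931 CPM in CTR (SD, n = 6 each).

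Of 32 genes listed for oxidase assembly, copper delivery and its substrate, 22 were tested, 12 with a log2 fold change below 0 (median −0.08). Past an unadjusted p of 0.05, 2 were lower and 0 higher, where all genes gave 4.47% lower, 3.89% higher and 49.3% below 0. Lrpprc, an RNA-binding protein that stabilises mitochondrial messengers, measured 184, 212 and 252 CPM in RSD and 238, 256 and 327 CPM in CTR (log2 fold change −0.32, SE 0.10, limma adjusted p = 0.433). Coa3, an assembly factor of the oxidase, had −0.42 (SE 0.18, limma adjusted p = 0.517). Ndufa4, now counted as an oxidase subunit, had 0.03, and Cycs, cytochrome c, had −0.24 (95% interval −0.67 to 0.20). Surf1, an assembly factor, and Chchd2 were listed at 0 in the 12 libraries. No row had the symbol Sco2, Coa8 or Pet117.

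Of 15 genes for synthase assembly, inhibition and ATP export, 14 were tested, 11 below 0 (median −0.22, against 49.3% of all genes below 0), with 3 lower and 0 higher past an unadjusted p of 0.05, against 4.47% and 3.89% of all genes. Slc25a4, the heart form of the carrier that exchanges ADP for ATP, measured 8629, 9015 and 9235 CPM in RSD and 9566, 10818 and 13557 CPM in CTR as lowest, median and highest library. The groups did not overlap, RSD being lower throughout, as in 0.173% of genes (log2 fold change −0.32, SE 0.11, limma adjusted p = 0.433). Usmg5, a small membrane subunit of the synthase that the table holds under this older name, had −0.57 (SE 0.18) and Vdac1, the outer membrane channel, −0.43 (SE 0.15), each with limma adjusted p = 0.433. Atpif1, the synthase inhibitor, had −0.11 (95% interval −0.30 to 0.08).

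Of 15 regulators of mitochondrial biogenesis, 13 were tested, 6 below 0 and 7 above (median 0.09), with 0 lower and 1 higher past an unadjusted p of 0.05. Over all genes tested 49.3% were below 0, 4.47% lower and 3.89% higher. Ppargc1b, a coactivator of respiratory genes, measured 31.8, 45.5 and 53.4 CPM in RSD and 28.4, 32.4 and 45.9 CPM in CTR (log2 fold change 0.37, SE 0.15, limma adjusted p = 0.496). Ppargc1a, its better known relative, had −0.08 (95% interval −0.57 to 0.41). None of the genes in these lists passed over all genes tested.

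Cell markers were read beside these results. All 10 cardiomyocyte markers were tested, 7 below 0 (median −0.04), with summed levels of 52893 to 58604 CPM in RSD and 51642 to 61897 CPM in CTR. Smooth muscle and pericyte markers had 5 of 6 tested rows below 0 (median −0.44) and summed to 70.9 to 114 CPM in RSD and 89.9 to 143 CPM in CTR. Fibroblast markers had 4 of 5 below 0 (median −0.03, 631 to 701 CPM in RSD, 577 to 788 CPM in CTR) and macrophage markers 4 of 6 (median −0.16, 69.4 to 96.9 CPM in RSD, 68.5 to 134 CPM in CTR). Each listed marker of these types had reads, except the fibroblast marker Col1a2, whose symbol had no row. Pecam1 of endothelium and Myh1 and Myh2 of skeletal muscle also had no row. Endothelial markers had 4 of 6 above 0 (median 0.18, 207 to 262 CPM in RSD, 179 to 237 CPM in CTR), erythroid markers 5 of 6 (median 0.37, 2424 to 26740.0 CPM in RSD, 2390 to 13735 CPM in CTR) and atrial markers 3 of 3 (median 0.51, 59.8 to 433 CPM in RSD, 93.8 to 218 CPM in CTR), the atrial Bmp10 being listed at 0. Of the skeletal muscle markers 1 was tested, with sums of 243 to 491 CPM in RSD and 245 to 423 CPM in CTR and Actn3 listed at 0. Markers with an unadjusted p under 0.05 were Tek (log2 fold change 0.48) and Eng (0.42) of endothelium, Ahsp (0.86) of erythroid cells, Mb (0.25) of cardiomyocytes, Col3a1 (−0.38) of fibroblasts and Mcam (−0.44) of smooth muscle and pericytes. None passed adjusted p 0.05 in limma. Of all genes tested, 49.3% lay below 0, and 4.47% were lower and 3.89% higher at an unadjusted p under 0.05. The part of these cell types in the results was not tested.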

How the data were processed

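Each library was made from 100 ng of left ventricle RNA with a 3' end kit, per the labels' protocols. The authors deposited CPM per gene, and per the submitters' processing notes bcl2fastq, STAR 2.6.0a, HTSeq 0.9.1, DESeq2 and rn6 were used, each in a role not given in the sources used here. Low values were whole multiples of 1 step, and 100% of values gave whole reads within 0.1 read, so the reads behind each value were recovered.

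Genes were kept by filterByExpr (minimum count 10), leaving 7511. limma 3.58.1 fitted log2(CPM / TMM factor + 1) with an intensity trend, two-sided, with Benjamini-Hochberg adjustment (R 4.3.3, edgeR 4.0.16). This scale understates changes of low genes. edgeR and DESeq2 1.42.0 on recovered reads, limma-voom and 1 surrogate variable (sva 3.50.0) were alternatives. The models without covariates were also run on simulated data, with the same spread for every gene and no shift of whole libraries, unlike these data. Isoform ratios were tested by exact permutation over 924 splits.

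Members, pairs and lists were chosen with earlier results of these data known, the lower Cox6b1 and Cox6a1 values included, so no list test was made and these patterns are not independent support. Named rows are those with an unadjusted p under 0.05, isoform pairs, the 3 most abundant rows of each complex, repeated symbols, up to 4 such genes per pathway list and fixed genes. Other members were added for their role. Promoters came from RefSeq, where the 36 symbols matched by current or older name and 30 genes had a window. Groups came from the labels. They name no batch of extraction or sequencing.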

Additional observations from a re-analysis of the deposited data

Results flagged for a closer look

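Of 78 group and measure pairs (the 31 tested rows, 5 isoform ratios, both complex sums and the median deviation, in 6 libraries each), 2 had 1 library apart from the other 5, where chance flags about 1 in 20. For Cox4i2, CTR 24 was the highest control at 16.8 CPM, and its gap to the next, at 8.56 CPM, was 0.713 of the group's range. For the summed ATP synthase rows, CTR 22 was the lowest control at 13637 CPM, and its gap to the next, at 16246 CPM, was 0.665 of the range.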

How the results depend on the processing

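No paired analysis was possible because the groups share no replicate numbers. The count of rows past adjusted p 0.05 was 0 with all 12 libraries under every scaling, filter, pseudocount, covariate and tool tried, edgeR (9 rows at an unadjusted p under 0.05), DESeq2 (8), limma-voom (11), 1 surrogate variable (2) and the mitochondrial covariate (2) included. It ranged from 0 to 5 when leaving out 1 library, the 5 without CTR 22. The median log2 fold change lay between −0.16 and −0.08 over those fits, and moved most with the mitochondrial share as a covariate (0.00) and with 1 surrogate variable (−0.03). With CPM as deposited, without TMM scaling, the median was −0.15, with 30 rows below 0. Rows such as Cox6a2 (from −0.08 to −0.12) and Cox6c (from −0.36 to −0.40) moved down by a similar amount in that fit. For these alternative fits, the shares of all genes below 0 or at an unadjusted p under 0.05 were not counted.

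The difference in log2 ratio ranged from 0.25 to 0.40 for Cox6a2 over Cox6a1 when leaving out 1 library, from −0.076 to 0.23 for Cox4i1 over Cox4i2 and from −0.070 to 0.029 for Atp5g2 over Atp5g3, from 0.059 to 0.15 for Atp5g1 over Atp5g3 and from 0.23 to 0.48 for Cox8b over Cox8a, and 0 pairs passed under any setting tried. Of 448 alternative values for the 18 named rows, 29 changed sign. All came from rows with a log2 fold change between −0.14 and 0.04. Values under 1 surrogate variable were 0.0018 for Cox6a2, −0.028 for Cox8b, 0.050 for Atp5g3, 0.18 for Atp5g1 and 0.072 for Atp5g2. Values under the mitochondrial covariate were 0.030 for Cox6a2, 0.0068 for Atp5i, 0.022 for Atp5b, 0.065 for Atp5g3, 0.14 for Atp5g1 and 0.11 for Atp5g2. With CPM as deposited Cox8b stood at −0.028 and Cox4i1 at −0.0024. Atp5g1 stood at 0.0064 with a minimum of 50 reads in 6 libraries, at 0.0021 in edgeR and at 0.0037 in DESeq2. Leaving out 1 library gave −0.016 to 0.038 for Cox8b, −0.0023 to 0.084 for Cox4i1, −0.17 to 0.13 for Cox4i2 and −0.079 to 0.056 for Atp5g1. The cause was not tested.

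Rows under 10 CPM rest on few reads, and differences below the spread between rats could not be seen with 6 libraries a group.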
